A study of Mus musculus with 10 samples.

Results

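The genes described here are 9 feedback inhibitors and target genes of fibroblast growth factor (FGF) signalling: Il17rd, Spry1, Spry2, Spry4, Spred1, Spred2, Dusp6, Etv4 and Etv5. They were taken by gene symbol, and all 9 were found among the 22046 protein-coding genes measured in mouse cerebellum. The set was chosen by the footprint values of Il17rd, which were higher in Bmal1 knockout mice, so the knockout and wild-type values of Il17rd are a description, with no test. The other 8 genes were taken for their place in the pathway, with earlier results of these data known. Knockout animals were Bmal1-/- and controls were their Bmal1+/+ littermates, bred from heterozygous C57BL/6 parents and housed in 12 h light, 12 h dark cycles. The knockout is of the whole body, and the sex, age and time of day of the animals are not given in the sources used here. Whole cerebellar tissue was lysed, part of each lysate was digested so that only RNA fragments of 28 to 34 nt covered by ribosomes (footprints) were left, and part was kept as total RNA. Values were analysed for 2 knockout animals (numbers 1 and 3) and 2 wild-type animals (numbers 2 and 3), each with both kinds of library.

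FGFs bind receptor tyrosine kinases that switch on RAS and a chain of kinases ending in ERK, which enters the nucleus and induces transcription factors of the ETS family such as ETV4 and ETV5. The same signal induces its own inhibitors. IL17RD, also called SEF, is a membrane protein that binds FGF receptors and keeps active ERK out of the nucleus. Sprouty proteins (SPRY) block the route from receptor to RAS, SPRED proteins bring the RAS inhibitor neurofibromin to the membrane, and DUSP6 is a phosphatase that inactivates ERK in the cytoplasm. In the cerebellum, FGF signalling is known for patterning the early territory and for the formation of Bergmann glia.

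Il17rd, Spry1 and Etv5 had the largest ratios between the genotypes in total RNA among these genes, and the DNA before their starts is shown for that reason. RefSeq windows (build GRCm38.p6) of 250 bases before a gene start were at hand for 7 of the 9 genes, Etv5 having a second start, which makes 8 windows. The sequences run 5′ to 3′ and are cut where the GENCODE M21 gene begins, and capitals mark the dinucleotide CG.
Il17rd (chr14:27038751-27038940, plus strand): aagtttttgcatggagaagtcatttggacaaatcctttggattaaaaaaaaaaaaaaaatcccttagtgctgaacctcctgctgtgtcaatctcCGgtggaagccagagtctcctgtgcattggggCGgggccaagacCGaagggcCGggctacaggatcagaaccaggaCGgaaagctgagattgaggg
Spry1 (chr3:37639697-37639946, plus strand): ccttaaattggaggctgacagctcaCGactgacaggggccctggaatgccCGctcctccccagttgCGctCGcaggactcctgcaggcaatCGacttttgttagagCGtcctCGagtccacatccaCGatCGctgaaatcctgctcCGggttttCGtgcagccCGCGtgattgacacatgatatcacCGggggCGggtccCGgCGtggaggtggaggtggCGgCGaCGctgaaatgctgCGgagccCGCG
Etv5 (chr16:22439720-22439820, minus strand): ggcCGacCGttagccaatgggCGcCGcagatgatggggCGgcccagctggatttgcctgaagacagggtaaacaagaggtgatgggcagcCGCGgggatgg
The whole window of Il17rd held 10 CG dinucleotides, that of Spry1 23 and the first one of Etv5 27, against a median of 6 in 32851 windows of mouse genes. CG was chosen as the mark after the sequences had been seen. None of the 8 windows held, on either strand, the E-box CACGTG bound by BMAL1 and its partners, the E′-box CACGTT, which shares all but its last letter, the D-box TTATGTAA, the ROR element core AGGTCA or the ETS core CCGGAA. Among all 32851 windows, 6.02% held the E-box, 3.85% the E′-box, 0.819% the D-box, 14.0% the ROR core and 12.0% the ETS core. This says only that these letters are not in these windows.

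Library totals ran from 25.6 to 43.2 M reads (M for mega), counted over genes above 0 in all libraries, and total RNA was read more deeply in each knockout animal than in either wild-type animal. Arntl, the symbol of the Bmal1 gene, had footprints of 124 and 107 RPKM (reads divided by a feature length and the library total) in the knockout and 258 and 295 in the wild type. Its total RNA was 267 and 272 RPKM in the knockout and 179 and 179 in the wild type. Total RNA thus went against the direction of a loss, and the deleted part is not named in the labels, so this value does not check the genotype. The tissue carried its defining markers in every library: total RNA of the granule neuron gene Gabra6 was 184 to 203 RPKM and that of the Purkinje cell gene Pcp2 942 to 1033. Wild type 2 stood apart in the hindbrain gene Hoxa5 (40.6 RPKM of total RNA, against 0.727 to 1.57 in the other 3 animals). In whole tissue, fewer cells of a type and less RNA per cell cannot be told apart.

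Il17rd was far higher in the knockout in both kinds of library. The gene lies on chromosome 14, 27038941 to 27107286 of the mm10 build. Total RNA stood at 29.0 RPKM in knockout 1 and 28.3 in knockout 3, against 8.47 in wild type 2 and 4.62 in wild type 3. Footprints stood at 23.9 and 24.4 RPKM in the knockout, against 3.995 and 3.998 in the wild type. The groups lay far apart in both, and the knockout animals agreed closely, while the wild-type animals differed in total RNA and not in footprints. Behind these values stood 792 and 860 reads of total RNA in the knockout against 156 and 91 in the wild type, and 639 and 484 footprint reads against 99 and 72. The ratio of means, knockout over wild type, was 4.37 in total RNA and 6.05 in footprints. On the log2(RPKM + 1) scale used for all genes, the difference was 2.02 (SE 0.24) in total RNA and 2.33 (SE 0.15) in footprints, above 99.83% of 12690 genes in total RNA and 99.86% of 12447 in footprints. Without wild type 2 the total RNA difference was 2.40 and without wild type 3 it was 1.65.

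Translational efficiency, the authors' ratio of footprint to total RNA RPKM in the same animal, did not separate the genotypes for Il17rd. The ratio was 0.826 in knockout 1, 0.865 in knockout 3, 0.472 in wild type 2 and 0.865 for wild type 3. Knockout 3 and wild type 3 had the same ratio, and wild type 2 alone was low. The log2 difference in efficiency was 0.31 (SE 0.31), and without wild type 2 it turned to -0.06.

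**Figure D1:**
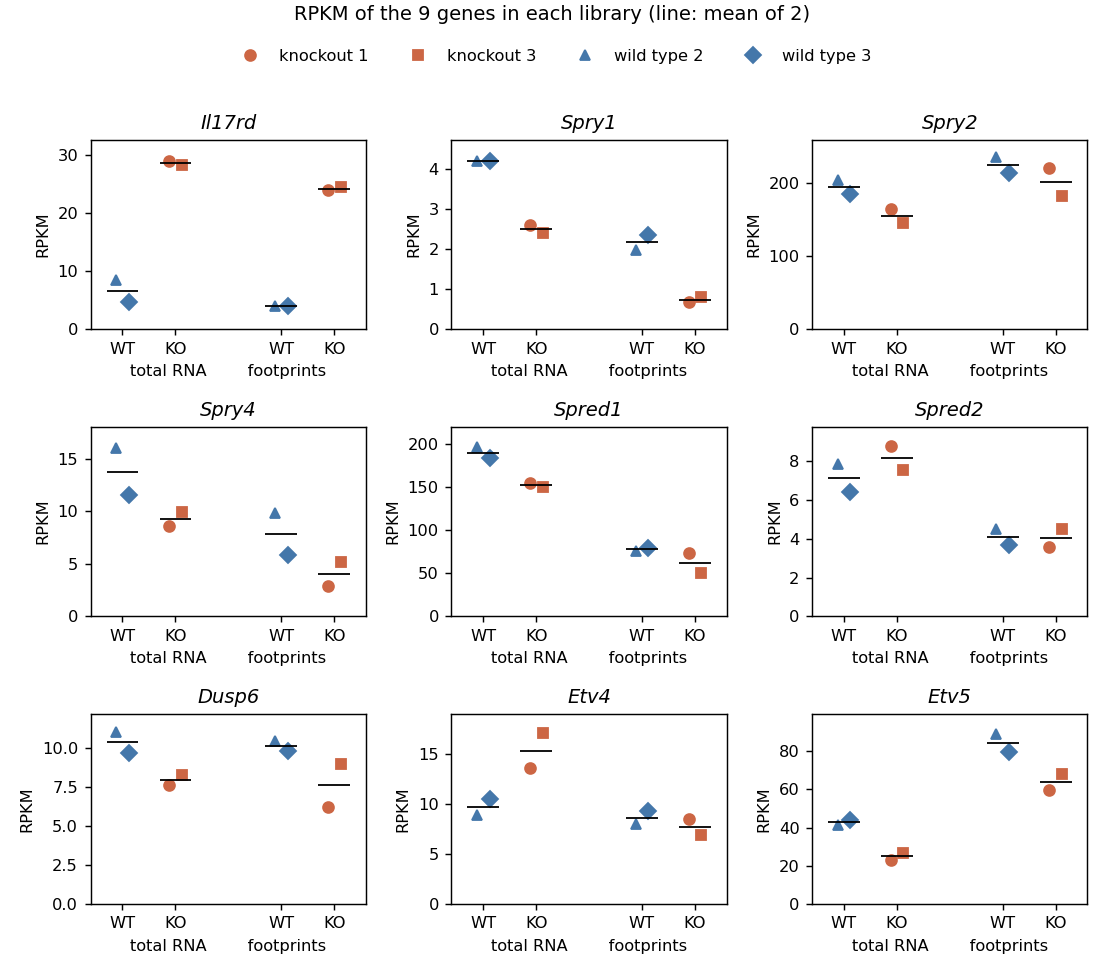
RPKM of each gene in each library (vertical axes from 0), with total RNA on the left and footprints on the right of each panel. Points are animals and lines the mean of 2. Il17rd sits between 23.9 and 29.0 RPKM in the knockout and at or below 8.47 in the wild type. Spry1, Spry4, Spred1, Dusp6 and Etv5 lie lower in both knockout animals in both kinds of library. Of all genes, 30.3% lay so in total RNA and 22.6% in footprints, and the share in both kinds at once was not computed. Spry1 footprints passed the filter on low values only through the wild type.

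Among the 8 other genes the differences ran mostly the opposite way to Il17rd in total RNA, but with a single call. Etv5 fell, and it was the only 1 of the 8 called by limma (Benjamini-Hochberg adjusted p under 0.05 over all 12690 genes tested), where 4.09% of all genes were called, 1.61% as lower and 2.48% as higher. Both knockout libraries lay below both wild-type libraries in 6 of the 8 genes (Spry1, Spry2, Spry4, Spred1, Dusp6 and Etv5) and above them in Etv4, against 55% of all genes with the groups apart, 30.3% lower and 24.7% higher. The median log2 fold change of the 8 was -0.34, beside -0.02 for all genes tested, and 6 of the 8 were below 0, as were 53.3% of all genes. At an unadjusted p under 0.05 by limma stood 7 of the 8, against 22.1% of all genes.

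By limma-voom on the read numbers recovered from the RPKM values, the second method used, 7 of the 8 were called, 6 lower and Etv4 higher, where 13.1% of 12390 genes were called, 6.76% as lower and 6.33% as higher. This count depended on which animal was left out. Without knockout 1 it was 1, with 544 of all genes called, and without knockout 3 it was 2, with 979 of all genes. Leaving out wild type 2 gave 4, with 1409 of all genes, and leaving out wild type 3 gave 7, with 1831. Etv5 was called in each of those fits, in which 1 group is a single library assumed to vary like the other group.

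Of the ETS factors, Etv5 and Etv4 differed in opposite directions in total RNA. Total RNA of Etv5 (chromosome 16, 22381309 to 22439719) was 23.2 and 26.7 RPKM in the knockout and 41.6 and 44.0 in the wild type. The groups did not overlap, and the knockout mean was 0.584 of the wild-type mean. The log2 fold change was -0.76 (SE 0.11), with an adjusted p of 0.0212 by limma and 5.39e-05 by limma-voom. By limma the call was lost without knockout 1 (adjusted p = 0.133) and without knockout 3 (0.0541). Total RNA of Etv4 (chromosome 11, 101769742 to 101785371) was 13.6 and 17.1 RPKM in the knockout and 8.90 and 10.5 in the wild type. Here the knockout animals were the higher ones, again without overlap, at 1.59 times the wild-type mean. Its log2 fold change of 0.61 (SE 0.15) missed the threshold by limma (adjusted p = 0.0816) and passed it by limma-voom (0.0332).

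Total RNA of Spry1, Spry2 and Spry4 was lower in both knockout animals, with no call by limma, while that of Spry3, a sprouty outside the 9 genes and in the list of other feedback inhibitors, was higher in both. Spry3, named after its values were seen, had 85.1 and 74.8 RPKM in the knockout and 70.3 and 65.9 in the wild type (0.23, SE 0.10, limma adjusted p = 0.259, limma-voom 0.310). Spry1 (chromosome 3, 37639947 to 37644598) had total RNA of 2.61 and 2.41 RPKM in the knockout and 4.20 and 4.22 in the wild type, 229 and 235 reads against 248 and 266 from shallower libraries. Its wild-type animals were nearly equal, and both knockout animals lay well below them. The log2 fold change was -0.57 (SE 0.12; limma adjusted p = 0.0602, limma-voom -0.77 with adjusted p = 0.00988), smaller on the first scale because 1 RPKM is added to a low value. Spry4 had 8.58 and 9.93 RPKM in the knockout and 16.1 and 11.5 in the wild type. Wild type 2 was the high sample, and wild type 3 lay closer to knockout 3 than to it (-0.51, SE 0.17, limma adjusted p = 0.159, limma-voom 0.0148). Spry2 (chromosome 14, 105891947 to 105896819) had 163 and 145 RPKM in the knockout and 203 and 184 in the wild type (-0.33, SE 0.10, limma adjusted p = 0.140, limma-voom 0.0451).

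Among the inhibitors that act on RAS and ERK, total RNA of Spred1 was lower in both knockout animals and that of Spred2 overlapped. Neither was called by limma, and the genes were not compared with each other. Spred1 (chromosome 2, 117121374 to 117182279), covered by 10102 to 12793 reads of total RNA per library, had 154 and 150 RPKM in the knockout and 196 and 183 in the wild type. The groups were apart by more than their spread, with a log2 fold change of -0.32 (SE 0.08, limma adjusted p = 0.0995, limma-voom 0.00530). Spred2 (chromosome 11, 19924375 to 20024026) had 8.78 and 7.57 RPKM in the knockout and 7.87 and 6.40 in the wild type. Its groups overlapped (0.18, SE 0.14, limma adjusted p = 0.507, limma-voom 0.313). Spred3, outside the 9 genes, had 41.3 and 40.8 RPKM in the knockout and 39.3 and 43.1 in the wild type (-0.004, SE 0.09). Its groups overlapped too, and it was named after its values were seen. The ERK phosphatase gene Dusp6 (chromosome 10, 99263231 to 99267489) had 7.61 and 8.30 RPKM in the knockout and 11.0 and 9.69 in the wild type (-0.34, SE 0.12, limma adjusted p = 0.170, limma-voom 0.0403).

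**Figure D2:**
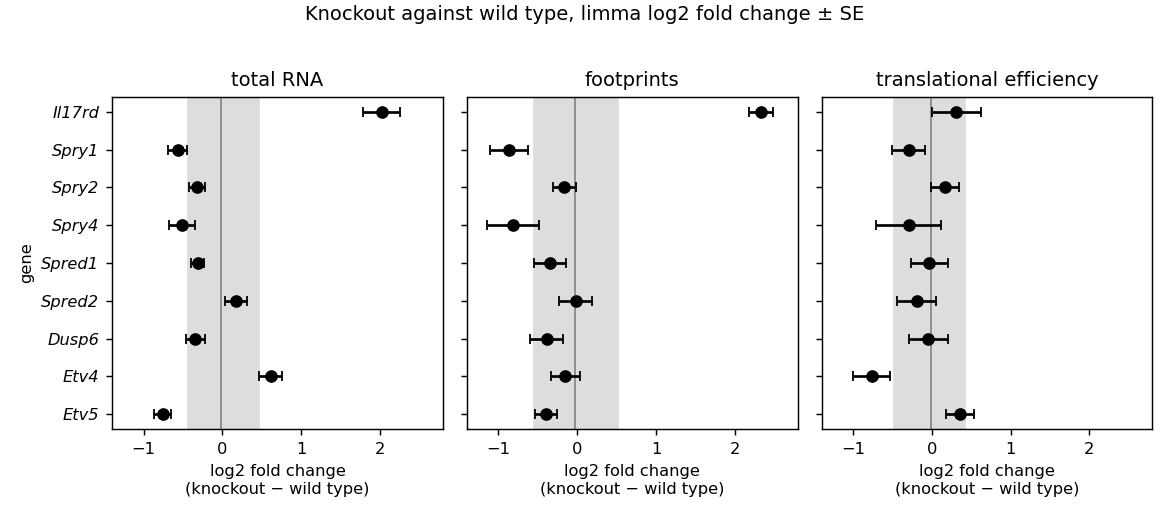
Log2 fold change, knockout minus wild type, of each gene in total RNA, footprints and translational efficiency (limma, points with SE; 2 against 2 animals per kind of library). Grey bands span the 5th to 95th percentile of all genes tested and grey lines their median. Il17rd lies at 2.02 and 2.33 in the first panels, and in total RNA Spry1, Spry4 and Etv5 lie below the band and Etv4 above it.

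In footprints none of the 8 genes was called by limma or by limma-voom, where 0.233% of 12447 and 1.63% of 12251 genes were, the latter 0.947% as higher and 0.686% as lower. At an unadjusted p under 0.05 by limma stood 2 of them (Spry1 and Etv5, both lower), against 10.4% of all genes, 5.7% as lower. All 8 log2 fold changes were negative, that of Spred2 at -0.02, and 55.2% of all genes were below 0. Both knockout animals lay below both wild-type animals in 5 genes, against 22.6% of all genes, and in 39.7% of all genes the groups were apart in either direction. The median of the 8 was -0.37, beside -0.03 for all genes. Spry1 is in all these counts and in the median, but it passed the filter on low values only through the wild type. Its lower direction is thus tied to that filter and adds nothing to the counts as support.

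Spry1 had the lowest ratio of footprints, and it passed the filter on low values (a mean of at least 1 RPKM) only through the wild type, both knockout values being below 1. Its footprints were 0.677 and 0.804 RPKM in the knockout and 1.99 and 2.36 in the wild type, from 58 and 51 reads against 158 and 136. The knockout mean was 0.341 of the wild-type mean, and the log2 fold change was -0.87 (SE 0.24, limma adjusted p = 0.302) or -1.53 by limma-voom (SE 0.51, adjusted p = 0.211). With all 8 libraries in a single fit, Spry1 was the 1 gene of the 8 called by limma (adjusted p = 0.0317). That fit shares the spread between both kinds and has no term for the animal, so libraries of an animal count as independent. In it 315 of all genes were called, against 29 in the fit of footprints alone. Spry4 footprints were 2.93 and 5.20 RPKM in the knockout and 9.89 and 5.88 in the wild type, with a wide spread within both groups (-0.81, SE 0.33, adjusted p = 0.490). Etv5 footprints were 59.5 and 68.0 RPKM in the knockout and 88.8 and 79.7 in the wild type (-0.40, SE 0.14, adjusted p = 0.411).

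The remaining genes showed smaller differences in footprints. Dusp6 had 6.21 and 9.01 RPKM in the knockout and 10.4 and 9.82 in the wild type (-0.39, SE 0.21). Spred1 had 73.3 and 50.3 RPKM in the knockout and 75.8 and 79.3 in the wild type, with knockout 1 next to the wild-type animals and knockout 3 well below (-0.35, SE 0.20). In Etv4, whose total RNA was higher in the knockout, the footprints were 8.51 and 6.93 RPKM in the knockout and 8.05 and 9.27 in the wild type, so that the groups overlapped (-0.15, SE 0.18). Spry2 (-0.16, SE 0.14) and Spred2 (-0.02, SE 0.21) overlapped as well. Limma adjusted p lay between 0.641 and 0.992 for these 5 genes.

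Translational efficiency compares the 2 kinds of library, and none of the 8 genes was called in it by limma or limma-voom. Of 12089 genes 0.0165% were called by limma and 0.00835% of 11975 by limma-voom, and 1 of the 8, Etv4, had an unadjusted p under 0.05, against 4.55% of all genes, 2.63% as lower. Below 0 were 6 of the 8 and 53.4% of all genes. Etv4 had ratios of 0.624 and 0.405 in the knockout and 0.904 and 0.884 in the wild type. Both knockout animals were lower, with a log2 difference of -0.76 (SE 0.24, limma adjusted p = 0.972). Spry1 had 0.259 and 0.333 in the knockout and 0.474 and 0.559 in the wild type (-0.30, SE 0.21). Its footprints passed the filter on low values only through the wild type, so its lower ratio is tied to that filter. Etv5 had 2.56 and 2.54 in the knockout and 2.14 and 1.81 in the wild type, the knockout animals being the higher ones (0.36, SE 0.17), and Spry2 had 1.35 and 1.25 against 1.16 and 1.16 (0.17, SE 0.18). In the other 4 genes the groups overlapped, and the groups were apart in 31.7% of all genes.

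**Figure D3:**
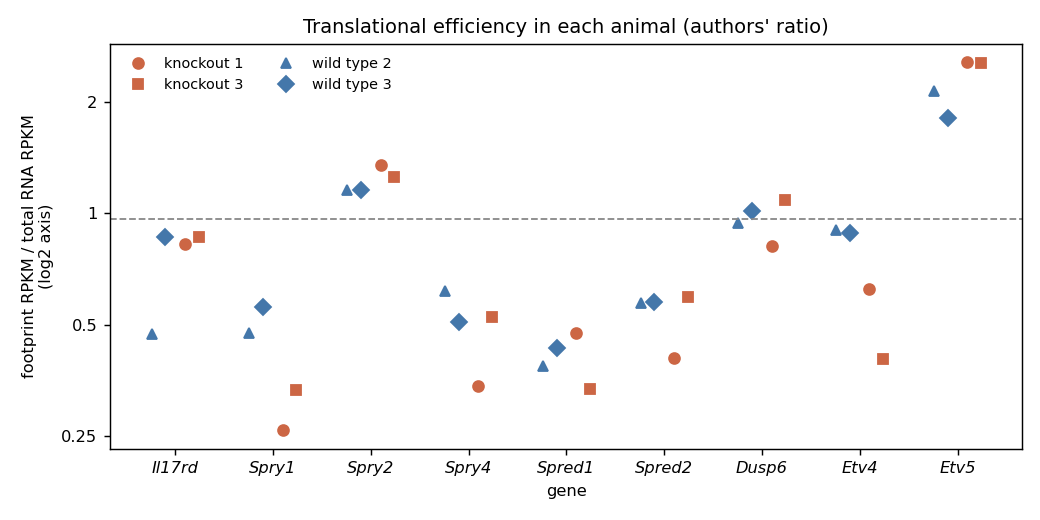
Translational efficiency of each gene in each animal (log2 axis), as the authors' ratio of footprint to total RNA RPKM. The dashed line is the median of wild-type means over 12089 genes (0.965). Etv5 lies at 1.81 or above in all 4 animals, and Il17rd, Spry1, Spry4, Spred1, Spred2 and Etv4 lie below the dashed line in all of them.

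The genes also differed from each other in the ratio of footprint to total RNA RPKM in the wild type. This is given as a description, since the footprints of Il17rd were used in choosing the set. The counting rule is not given in the sources, so between genes the ratio cannot be read as ribosome density alone. In the wild type the mean efficiency was lowest for Spred1 (0.410, above 12.7% of 12089 genes), followed by Spry1 (0.516), Spry4 (0.563), Spred2 (0.575) and Il17rd (0.668, above 30.2%). Etv4 (0.894), Dusp6 (0.979) and Spry2 (1.16) were near the median of all genes, 0.965. Etv5 was the highest at 1.97, above 86.9% of genes.

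RPKM in these tables cannot be set side by side between genes, since 1 RPKM stood for 7.40 reads in Spry2 and for 311 in Spred2. Levels were therefore compared as footprint RPKM recomputed from the recovered reads with the longest GENCODE M21 coding sequence as the length. The authors' length is another one: Spry1 and Spry2 have coding sequences of 939 and 945 bases, but 72.8 and 7.40 reads per RPKM. The order below holds only if the reads were counted over that whole coding sequence, which is not stated in the sources and was not tested. On this scale the wild-type mean was 106 for Spred1, 50.2 for Spry2, 48.2 for Etv5, 27.8 for Spred2, 25.1 for Dusp6, 15.5 for Spry4, 4.83 for Spry1, 4.03 for Etv4 and 1.17 for Il17rd, with a median of 19.0 over 11972 genes. Spry2 and Etv5 overlapped between the wild-type animals, as did Spred2 and Dusp6, and the other neighbours in this order did not. Il17rd, the lowest of the 9 in the wild type, stood at 7.04 and 7.26 in the knockout animals, above Etv4 (3.97 and 3.26) and Spry1 (1.51 and 1.80) and in the range of Spry4 (5.75 and 10.3).

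Of the other genes of the pathway, in lists by role, limma called 1 of 67 tested in total RNA, where 4.09% of all genes were called, 0 of 65 in footprints and 0 of 63 in efficiency. At an unadjusted p under 0.05 by limma stood 17, 6 and 2 of them in the same order, against 22.1%, 10.4% and 4.55% of all genes. By limma-voom 7 of 65 were called in total RNA, 2 higher and 5 lower, where 13.1% of all genes were called, and none in footprints or efficiency. The call was Egr1, an immediate early transcription factor gene induced by ERK, which rose by a log2 fold change of 0.44 (SE 0.09) just inside the threshold (adjusted p = 0.0499983, limma-voom 0.0516). It was the only 1 of 9 tested genes in the list of other ERK-induced factors and targets, whose extremes were Myc (0.85) and Ier3 (-0.59) in total RNA, Myc (0.94) and Ier3 (-0.80) in footprints, and Ier2 (0.12) and Fosl2 (-0.36) in efficiency. The list's median was 0.03 in total RNA. By limma-voom 1 of the 9, Ier3, was called lower in total RNA.

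Upstream of the cascade no gene was called by limma. Of 18 FGF ligand genes 8 were tested in total RNA, with 7 negative values and a median of -0.17, from Fgf9 (0.14) to Fgf2 (-0.53, adjusted p = 0.102). In footprints 6 were tested, from Fgf9 (0.03) to Fgf17 (-0.70, SE 0.75). In efficiency 5 were tested, from Fgf22 (0.26) to Fgf18 (-0.57, SE 0.64). Fgf17 footprints were 0.447 and 0.302 RPKM in the knockout and 0 and 3.98 in the wild type. They passed the filter on low values only through wild type 3. Fgf18 footprints, 0 in knockout 1 and 2.56 RPKM in wild type 2, passed it only through the wild type. The lower values of Fgf17 and Fgf18 are thus tied to that filter. The 4 intracellular FGF homologous factors, which regulate sodium channels and do not act as ligands, ranged from Fgf14 (0.12) to Fgf13 (-0.24) in total RNA, from 0.14 to -0.35 in footprints and from 0.02 to -0.11 in efficiency, with the same genes at both ends. Of 9 receptor and co-receptor genes 7 were tested, and the lowest was Flrt2, which encodes a membrane protein of the FLRT family, at -0.58 in total RNA (limma adjusted p = 0.0582, limma-voom 0.00238) and -0.66 in footprints. The highest were Flrt1 (0.16) in total RNA, Fgfr2 (0.09) in footprints and Flrt3 (0.30) in efficiency, where Fgfrl1 was the lowest (-0.47). The receptor genes Fgfr1 (-0.12), Fgfr2 (0.07) and Fgfr3 (-0.21) were not called in total RNA.

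Inside the cell the list medians in total RNA lay close to that of all genes. The 12 adaptor and RAS regulator genes had a median of -0.002 in total RNA, from Cbl (0.31) to Shc1 (-0.37). In footprints 11 were tested, from Rasa1 (0.11) to Sos2 (-0.28), and in efficiency they ran from Shc1 (0.26) to Cbl (-0.35). The 13 genes of the RAS-RAF-MEK-ERK chain had a median of 0.01, from the scaffold gene Ksr2 (0.46, limma adjusted p = 0.0521, limma-voom 0.00142) to Araf (-0.18). Their footprints ran from Map2k1 (0.12) to Hras (-0.31), and their efficiency from Araf (0.12) to Ksr2 (-0.61). Of 14 other feedback inhibitors and MAPK phosphatases 12 were tested, with a median of -0.04 in total RNA. Dusp8 (0.32, limma-voom adjusted p = 0.0359) was the highest and Dusp4 (-0.62, limma-voom 0.0221) the lowest, and Dusp5 (-0.34, limma-voom 0.0168) was also called lower by limma-voom. In footprints this list ran from Dusp16 (0.17) to Dusp4 (-0.60), and in efficiency from Dusp14 (0.24) to Dusp8 (-0.37).

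Il17rd belongs by sequence to the IL-17 receptor family. A list of that family, its ligands and Traf3ip2 held 11 other genes, of which 2 were tested in total RNA. Il17ra, the receptor subunit for IL-17A, was at -0.50 (SE 0.12, limma adjusted p = 0.0778, limma-voom 0.0186) and Il17re at 0.66 (SE 0.13, limma adjusted p = 0.0526). In footprints 3 were tested, from Il17re (0.42) through Traf3ip2 (-0.17) to Il17ra (-0.63), and in efficiency Il17ra was at -0.13 and Il17re at -0.24.

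**Figure D4:**
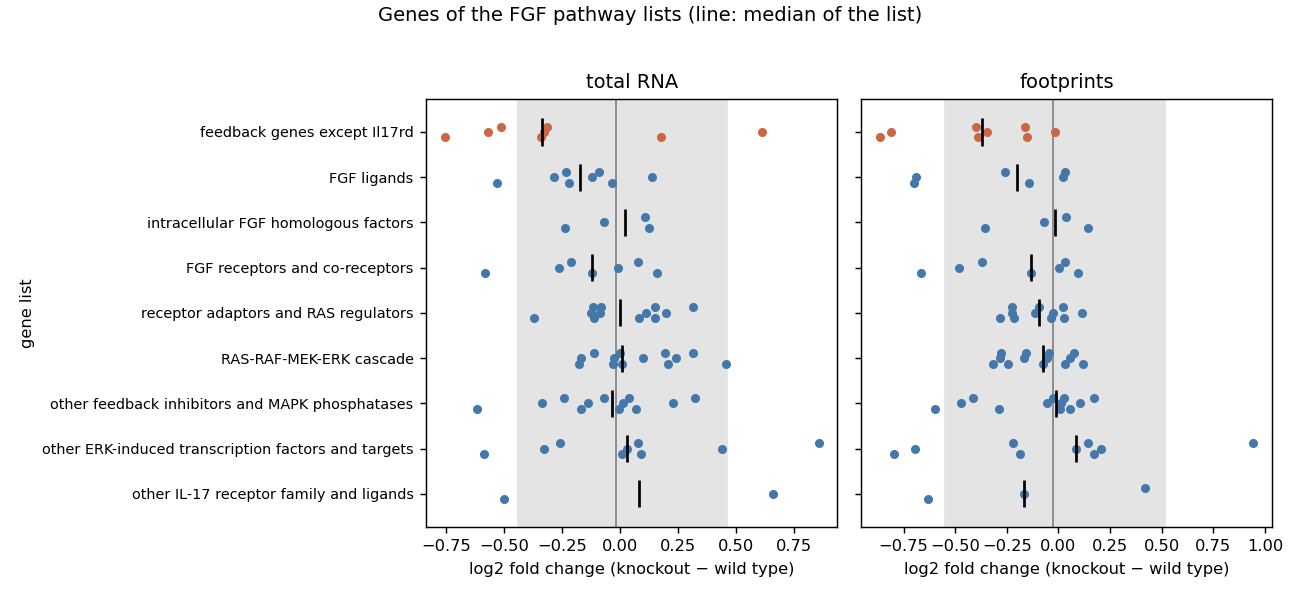
Log2 fold change, knockout minus wild type (limma), of the tested genes in each pathway list, for total RNA and footprints. Each point is a gene, black lines are list medians, and grey bands span the 5th to 95th percentile of all genes. The 8 feedback genes without Il17rd have medians of -0.34 and -0.37, and the other lists lie between -0.17 and 0.08 in total RNA.

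The genes whose pattern was most like that of Il17rd over the 8 libraries were Entpd2, S100a10, Parp4, Pla2g7 and Cdkn1a. Likeness was the Pearson r of log2(RPKM + 1), centred within each kind of library, among 12089 genes, and was 0.995 for Entpd2 and 0.991 for the fifth, Cdkn1a. These r values follow from 8 libraries of 4 animals that fall into 2 genotypes. Entpd2, which encodes an enzyme that cleaves extracellular ATP, had total RNA of 7.75 and 7.15 RPKM in the knockout and 3.81 and 3.23 in the wild type, and footprints of 21.0 and 20.6 against 8.91 and 8.92. Cdkn1a, the gene of the cell cycle inhibitor p21, had total RNA of 14.8 and 13.8 RPKM against 2.79 and 1.82. As in Il17rd, wild type 2 was above wild type 3 in total RNA of both genes. Both were picked by likeness over these same libraries, so this order is not a separate trait.

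Markers of several cell types moved with genotype in these libraries. All 8 choroid plexus markers were higher in both knockout total RNA libraries, and their summed RPKM was 12440 in knockout 1, 14643 in knockout 3, 5707 in wild type 2 but 264 for wild type 3. In footprints their sums were 39664 and 40816 in the knockout, 17016 in wild type 2 and 576 for wild type 3. Between the wild-type animals, Il17rd total RNA was the higher in wild type 2 (8.47 against 4.62 RPKM), as the choroid plexus sum was, and Il17rd footprints were 3.995 and 3.998. The part of choroid plexus RNA in the Il17rd values was not tested. Unless footprints are named, the counts and sums that follow are of total RNA. There the groups were apart with the knockout higher in 24.7% of all genes and lower in 30.3%. All 9 microglia markers were lower in the knockout (sums of 265 and 280 against 357 and 374). So were 7 of 9 oligodendrocyte markers (2345 and 2301 against 3321 and 2791), with 1 higher. In footprints 6 microglia markers were lower and 1 higher, and 8 oligodendrocyte markers were lower. Of all genes in footprints, the groups were apart with the knockout lower in 22.6% and higher in 17.1%. The part of these cells in the lower total RNA values of the feedback genes was not tested. Of 14 markers of astrocytes and Bergmann glia, 6 were higher and 7 lower in the knockout without overlap, with sums of 7886 and 7867 against 7732 and 7417. Oligodendrocyte precursor markers summed to 309 and 287 RPKM in the knockout and 317 and 339 in the wild type, with 3 of 7 genes higher and 1 lower. Endothelial and mural markers summed to 430 and 360 against 341 and 261, with 1 of 10 higher and 1 lower, and 6 of 10 granule neuron markers were higher and 1 lower (4769 and 4683 against 3753 and 4068). The sums were 485 and 483 against 487 and 455 for 7 meningeal markers, and 31099 and 34152 against 33706 and 38812 for 9 Purkinje cell markers. RPKM cannot be set side by side between genes here, and single genes made up most of some sums. In total RNA of knockout 1, Ttr held 11753 of the choroid plexus sum of 12440, and Car8 held 23728 of the Purkinje cell sum of 31099. Brainstem and midbrain markers summed to 63.2 and 69.3 against 167 and 88.7. No marker of these lists was at 0 in all total RNA libraries.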

How the data were processed

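Total RNA and ribosome footprints of mouse cerebellum were analysed from the authors' deposited tables. The tools named in the submitters' processing notes are STAR, Bowtie and Cufflinks, and the build is mm10. Versions, settings and the counting rule are not given in the sources used here. The deposited values are RPKM per library and, per the file headers, translational efficiency (TE) as a ratio; all 47790 ratios checked lay within 2% of footprint over total RNA RPKM. The authors' mean read count, a depth signal per gene, equalled the geometric mean of whole reads: with relative depths read from the steps between low values, 99.9% of 4392 low values fell within 0.1 of a whole number. Reads were so recovered for 13880 genes. The series has 10 libraries, and 8 have a column; knockout 2 and wild type 1 (total RNA) were not analysed here.

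The limma 3.58.1 package (R 4.3.3) compared 2 against 2 libraries on log2(RPKM + 1), using its intensity trend and keeping genes whose RPKM averaged 1 or more. TE was tested as a genotype by library-kind interaction. Calls are at an adjusted p-value under 0.05. The fit was checked on simulated data. Replicates are biological ones, per the series' design text. Libraries of a group were not copies (chi-square over degrees of freedom 12.6 to 40.8). Footprints and total RNA of an animal share a lysate, per the labels; their deviations correlated at 0.259 in the wild type and -0.004 in the knockout. Gene spans matched GENCODE M21 for the genes whose coordinates are given. Members and lists were chosen with earlier results of these data known. Named are the 9 genes, called genes and extremes of each list, and the 5 genes most like Il17rd. Pseudocount, filter, normalization, trend, method, left-out animals, joint fit and animal block were varied.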

Additional observations from a re-analysis of the deposited data

How the results depend on the processing

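With 2 animals a group, calls depend on the method and on single animals. Of the 8 genes other than Il17rd, 1 was called in total RNA, and 0 were with no filter on low values, 2 without a variance trend and 7 by limma-voom. Leaving out 1 animal gave 0 to 1 by limma (0 without knockout 1 or knockout 3). Leaving out an animal from limma-voom, a combination chosen after seeing the data, gave 1 (knockout 1), 2 (knockout 3), 4 (wild type 2) or 7 (wild type 3), beside 544, 979, 1409 and 1831 of all genes. In footprints 0 were called, against 1 with all libraries in one fit (Spry1, which passed the filter on low values only through the wild type). The footprint count by limma-voom also moved with the animal left out. In translational efficiency 0 were called under each setting.

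All genes called in total RNA numbered 519 (315 higher, 204 lower), against 26 with no filter, 217 with all libraries in one fit, 117 to 563 with 1 animal left out and 1621 by limma-voom (784 higher, 837 lower). In footprints the count was 29, against 17 with a pseudocount of 0.1, 1 with no filter, 1 to 6 with 1 animal left out, 200 by limma-voom and 315 in one fit. In efficiency it was 2, and 0 to 5 under the alternatives.

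The directions that turned were of differences of 0.31 or less on the log2 scale, 0.31 being that of Il17rd in efficiency. In footprints Spred2 ranged from -0.15 to 0.11 with 1 animal left out. In efficiency Spred1 was 0.0032 with quantile normalization and 0.012 by limma-voom, and with 1 animal left out Spred1 ranged from -0.282 to 0.219, Spred2 from -0.424 to 0.0347, Dusp6 from -0.227 to 0.135 and Il17rd from -0.0639 to 0.69. The causes were not tested. With the animal as a replicate block, 0 of the 8 genes and 1 of all genes were called in efficiency, so no call of these genes changed. No paired analysis was possible within a kind of library because knockout and wild type share only the number 3.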
